A study of Mus musculus with 2 samples.

Results

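Coenzyme A (CoA) synthesis and turnover was described through 10 genes: the pantothenate kinase genes Pank1, Pank2, Pank3 and Pank4, the later synthesis genes Ppcs, Ppcdc and Coasy, and the breakdown genes Vnn1, Nudt7 and Nudt19. They were chosen by the annotated function of their probe sets among 19938 named genes, with no threshold on any value, and all 10 were measured, each by 1 probe set. The group was selected with earlier intensity differences of these data in view, among them the large one of Pank1, so the values of the 10 genes are a description and carry no test. RNA came from inguinal white adipose tissue, the subcutaneous fat of the groin, of male C57BL/6J littermates. The UCP1/ApoE double-knockout mice (DKO) lacked Ucp1 and ApoE (Ucp1-/-;ApoE-/-), and the ApoE-KO mice lacked ApoE alone (ApoE-/-). All were kept at 23 °C and, starting at 9 weeks of age, ate a high-fat diet over the next 9 weeks, so the loss of ApoE and the diet were common to both genotypes. Both losses are whole-body, so other tissues of these mice lacked the genes too. RNA of 3 mice per genotype was mixed and read on 1 Affymetrix whole-transcript array, which leaves 2 arrays, no measured spread between mice or arrays and no p-value for any difference.

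CoA is the carrier of acyl groups in fatty acid oxidation, fatty acid synthesis and the tricarboxylic acid cycle, and cells build it from the B vitamin pantothenate, cysteine and ATP. Pantothenate kinase catalyses the first step and sets the pace of the pathway, and CoA or its thioesters inhibit the active enzymes. Phosphopantothenate is then joined to cysteine, decarboxylated to phosphopantetheine and completed to CoA by a bifunctional synthase. Mitochondria hold much of the CoA of a cell, peroxisomes hold a pool of their own, and Nudix hydrolases and pantetheinases take the molecule apart again.

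The targeted genes and the markers of the tissue were read before the members. The Ucp1 probe set had an intensity of 2230 in the DKO-labelled and 219 in the ApoE-KO-labelled array, which is 10.2-fold higher in the mice described as lacking the gene. Whether its probes lie in the disrupted part of Ucp1 is not stated in the sources used here, and probes elsewhere in the gene would check nothing. This check of the labels was therefore undecided, and whether the 2 labels were exchanged was not tested. Each array is named by its label (DKO-labelled, ApoE-KO-labelled) and each direction rests on those labels. Apoe, disrupted in both genotypes, had 502 in the DKO-labelled and 589 in the ApoE-KO-labelled array. Of 9891 genes on or above the floor defined below, 2.79% were at least 2-fold higher in the DKO-labelled array and 0.698% lower. Of 11 measured markers of all fat cells, such as Adipoq and Plin1, 0 differed 2-fold, a count near that background. Their median log2 difference was 0.050. Of 11 measured brown and beige fat markers, Ucp1 included, 11 were at least 2-fold higher in the DKO-labelled array (background 2.79%). Their median difference was 2.97. Their summed intensities were 26407 in the DKO-labelled and 3945 in the ApoE-KO-labelled array. In the ApoE-KO-labelled array 3 of the 11, Elovl3 (67.2), Dio2 (121) and Slc27a2 (161), lay below the floor. With the floor in place of those values, their log2 differences were 3.35, 2.26 and 3.78, still at least 2-fold. The median of 2.97 is the value of Dio2 before that replacement, and after it the middle value is that of Cidea, 2.90. All 22 skeletal muscle markers were lower in the DKO-labelled array, with summed intensities of 4158 there and 48999 in the ApoE-KO-labelled array. In the DKO-labelled array 17 of the 22 lay below the floor, so signal and background were not told apart in much of the sum of 4158. B cell markers were lower in 9 of 9 genes, with sums of 3410 in the DKO-labelled and 6856 in the ApoE-KO-labelled array. Macrophage markers were lower in 9 of 10 genes (8107 in the DKO-labelled and 11885 in the ApoE-KO-labelled array), and fibroblast and progenitor markers in 10 of 10 (24039 in the DKO-labelled and 35823 in the ApoE-KO-labelled array). Of all 19938 named genes, 10397 were lower and 9249 higher in the DKO-labelled array. None of the markers was listed at 0. The arrays therefore also differed in the RNA of other cells, and the part of each cell type in the values below was not tested.

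Differences are log2 of the intensity in the DKO-labelled array minus log2 of that in the ApoE-KO-labelled array. A gene was counted when its mean log2 intensity reached a floor of 7.62, the median of all named probe sets (197 as an intensity), and its difference was at least 2-fold. Of the 10 CoA genes, 3 were at least 2-fold higher in the DKO-labelled array, beside a background of 2.79% of the 9891 genes on or above the floor. At least 2-fold lower were 0 of the 10, beside a background of 0.698%. All 10 lay on or above the floor, and so did each of their values, the lowest being 235. Their median difference was 0.38, or 1.30-fold, where the median of all genes on or above the floor was -0.011. In bulk tissue, fewer cells of a type and less RNA per cell cannot be told apart, which holds for every difference given here.

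**Figure D1:**
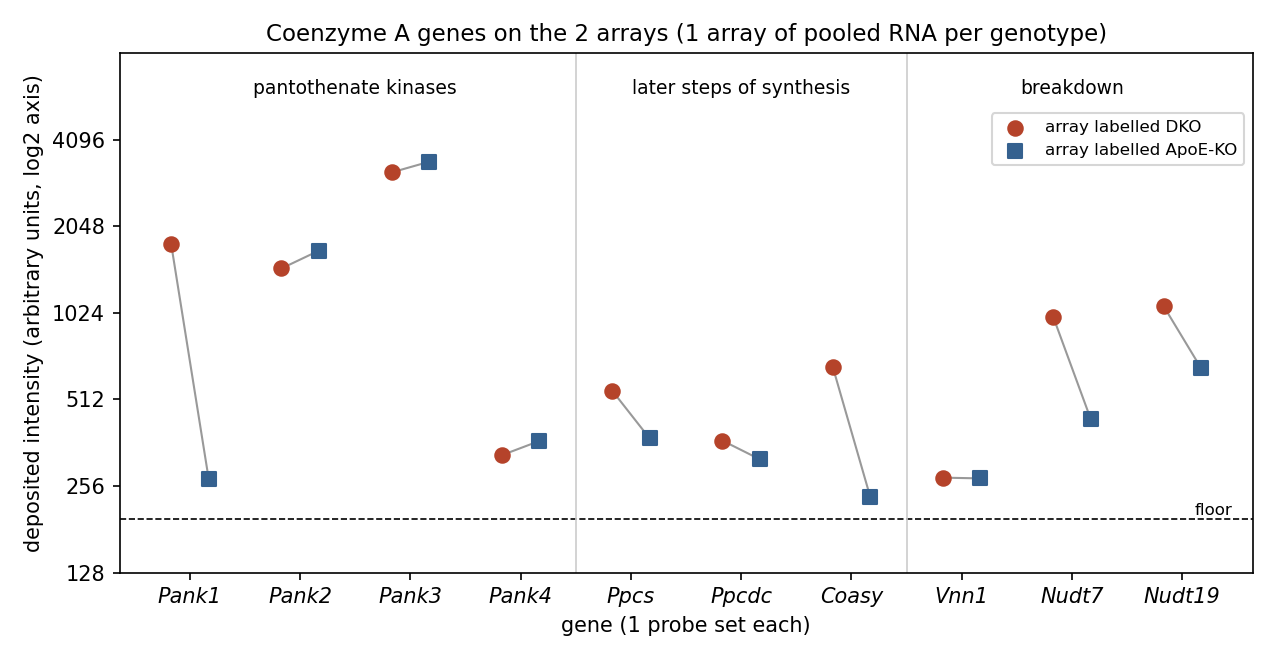
Deposited intensity (arbitrary units, log2 axis) of each of the 10 CoA genes in the DKO-labelled (circles) and the ApoE-KO-labelled array (squares), 1 array each, with the floor of 197 as a dashed line. Pank1, Coasy and Nudt7 have the widest gaps, Vnn1 is level, and Pank2, Pank3 and Pank4 sit slightly lower in the DKO-labelled array; heights of different genes come from different probes and are not comparable.

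The pantothenate kinases split. Pank1 had an intensity of 1775 in the DKO-labelled and 271 in the ApoE-KO-labelled array, a log2 difference of 2.71 or 6.54-fold. That was rank 10 of 9891 genes in order of difference, from the highest. Relative to the median of the fat cell markers it was 2.66, and it was measured beside the higher brown and beige markers and the lower muscle markers given above. Pank1 encodes cytosolic and nuclear kinase forms made from alternative starts, and in mice its loss lowers liver CoA and fasting fatty acid oxidation. The other 3 kinase genes were each slightly lower in the DKO-labelled array and none came near 2-fold. Pank2, whose human protein works in mitochondria and is lost in a neurodegeneration with brain iron, had 1460 in the DKO-labelled and 1684 in the ApoE-KO-labelled array (log2 difference -0.21). Pank3, a cytosolic kinase that acetyl-CoA inhibits, had 3150 in the DKO-labelled and 3431 in the ApoE-KO-labelled array (-0.12). Pank4, which lacks kinase activity in mammals and acts as a phosphatase on phosphopantetheine, had 328 in the DKO-labelled and 367 in the ApoE-KO-labelled array (-0.16). Between Pank1 and the nearest of the other kinases, the differences lay 2.83 log2 units apart.

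The Pank1 locus has more than 1 annotated start, and the windows around those of the reference table are printed because the probe set's values do not say which start was used. Each window spans 250 bases before to 50 after a RefSeq start in GRCm38.p6, minus strand. Capitals mark a TATA box (TATAAA) in the window of the upstream start, or a CCAAT box (CCAAT) in the window of the downstream start, on either strand.
Pank1, upstream start, chr19:34879406-34879705: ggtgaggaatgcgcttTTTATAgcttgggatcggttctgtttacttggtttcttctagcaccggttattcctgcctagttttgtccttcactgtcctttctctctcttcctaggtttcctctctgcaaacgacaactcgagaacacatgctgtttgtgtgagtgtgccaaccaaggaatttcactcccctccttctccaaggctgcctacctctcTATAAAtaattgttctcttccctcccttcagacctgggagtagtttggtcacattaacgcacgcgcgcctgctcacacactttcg
Pank1, downstream start, chr19:34877868-34878167: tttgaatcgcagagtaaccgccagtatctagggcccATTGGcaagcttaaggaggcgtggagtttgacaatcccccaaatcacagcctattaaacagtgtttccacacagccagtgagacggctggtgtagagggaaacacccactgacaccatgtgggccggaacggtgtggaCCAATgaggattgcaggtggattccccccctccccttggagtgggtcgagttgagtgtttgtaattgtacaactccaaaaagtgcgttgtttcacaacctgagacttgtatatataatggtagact
The upstream window held the letters of the TATA box and none of the CCAAT box, and in the downstream window it was the reverse. Of all 32851 windows of this length, 13.6% held the TATA box and 37.4% the CCAAT box, so both are common. Of the 8 CoA genes with a window in the table, Pank1 was the 1 gene with the TATA box. Coasy and Vnn1 had no window there.

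Inside 3 of the kinase genes lie microRNA genes of 1 family, shown here since the same arrays hold probe sets for them. Per RefSeq (GRCm38.p6), the hairpin of Mir107 lies inside Pank1, that of Mir103-1 inside Pank3 and that of Mir103-2 inside Pank2, each on the strand of its host. Capitals mark the seed, bases 2 to 8.
mmu-miR-107-3p, chr19:34820700-34820722, minus strand: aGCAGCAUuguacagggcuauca
mmu-miR-103-3p, chr11:35782447-35782469 (Mir103-1), plus strand, and chr2:131288103-131288125 (Mir103-2), plus strand: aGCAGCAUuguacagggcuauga
Both carry the same seed and differ at C22G, with miR-107 first and positions counted from the 5′ end. The Mir107 probe set had 87.9 in the DKO-labelled and 125 in the ApoE-KO-labelled array (log2 difference -0.51), on the opposite side of 0 from its host Pank1. Both values lie below the floor, and with no detection call used here, signal and background were not told apart at this level, so no direction is read from them. Mir103-1 had 47.0 in the DKO-labelled and 39.8 in the ApoE-KO-labelled array, also below it. Mir103-2 had 187 in the DKO-labelled and 226 in the ApoE-KO-labelled array (-0.27), and of the 3 it alone had a mean on or above the floor.

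The 3 later steps of synthesis all lay higher in the DKO-labelled array, in unequal amounts. Coasy, the bifunctional synthase that adds the adenylyl group and then the last phosphate, had 665 in the DKO-labelled and 235 in the ApoE-KO-labelled array. It was 2.83-fold higher, at rank 64 of 9891. Ppcs, which joins phosphopantothenate to cysteine, had 549 in the DKO-labelled and 374 in the ApoE-KO-labelled array (0.55, or 1.47-fold). Ppcdc, the decarboxylase that follows, had 368 in the DKO-labelled and 317 in the ApoE-KO-labelled array (0.22, or 1.16-fold). The genes with the largest differences thus belonged to the first step and the last, with smaller ones between them.

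The breakdown genes were also unequal. Nudt7, a peroxisomal Nudix hydrolase that cleaves CoA and acyl-CoA to phosphopantetheine products, had 990.4 in the DKO-labelled and 437 in the ApoE-KO-labelled array. This was a difference of 1.18, or 2.26-fold, at rank 168. Nudt19, the peroxisomal hydrolase known as the main one of mouse kidney, had 1082 in the DKO-labelled and 658 in the ApoE-KO-labelled array (0.72, or 1.64-fold). Vnn1, a membrane-anchored pantetheinase that returns pantothenate and releases cysteamine, had 274 in the DKO-labelled and 272 in the ApoE-KO-labelled array (0.0085). Its sign is not settled, as it turned under 1 of 7 other treatments of the values, not all of which could change it. Genes of synthesis and of breakdown were therefore both among those at least 2-fold higher.

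**Figure D2:**
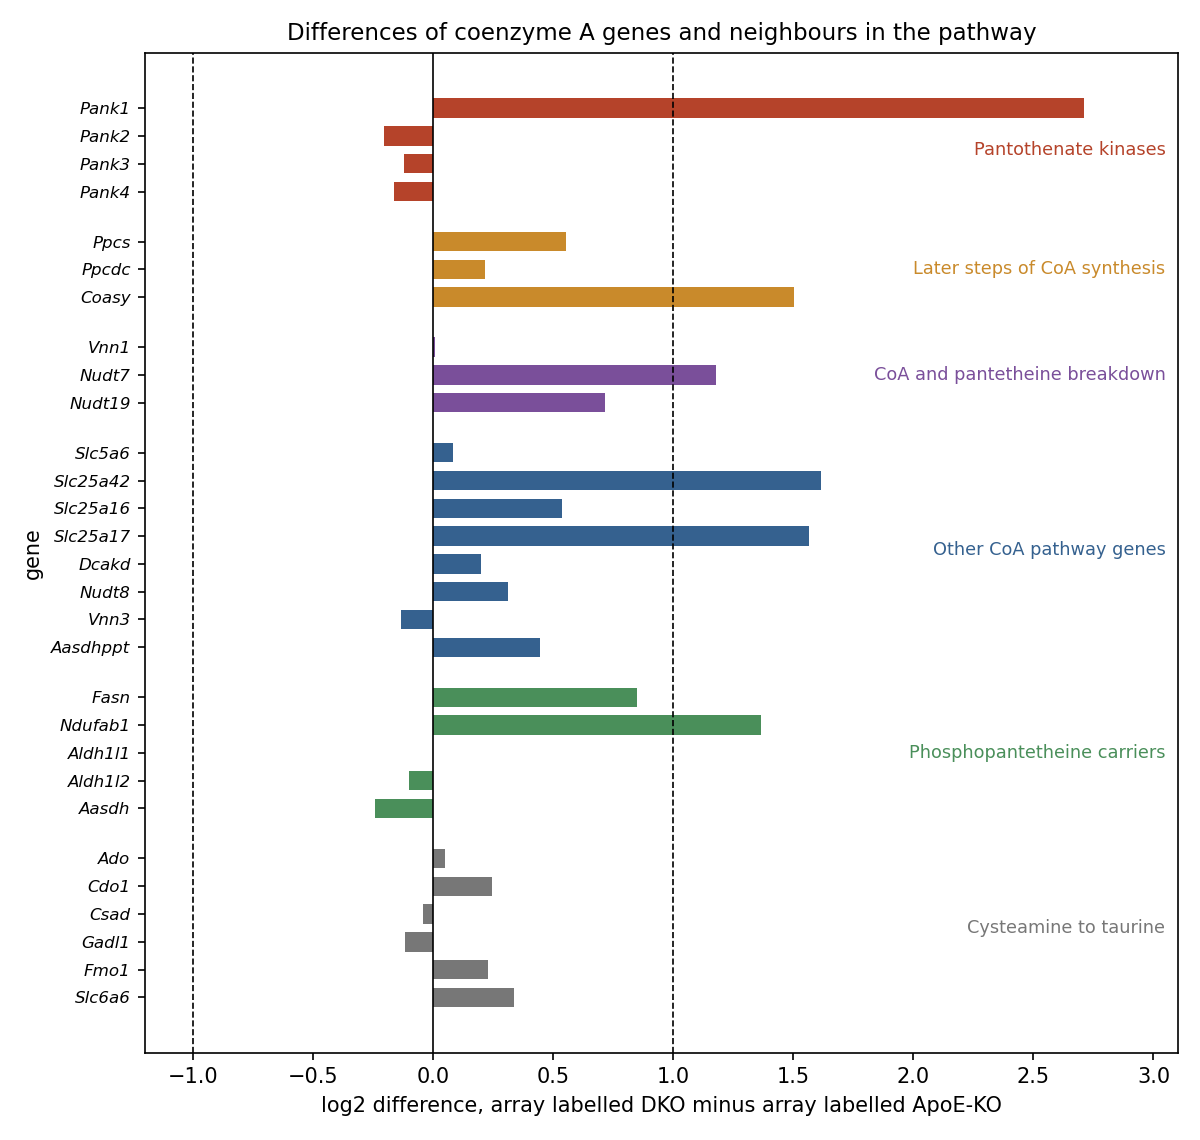
Log2 difference (DKO-labelled minus ApoE-KO-labelled array) of the 10 CoA genes and of other genes of the pathway, coloured by role, with 2-fold marked by dashed lines. Pank1 (2.71), Slc25a42 (1.62), Slc25a17 (1.57), Coasy (2.83-fold), Ndufab1 (1.36) and Nudt7 (1.18) pass the line on the right, and 0 genes pass it on the left.

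The promoter window of Nudt7 is shown for a motif that few windows hold, the core of the nuclear respiratory factor NRF1 (GCGC, a pair of any bases, GCGC). The letters occurred in 6.23% of all windows and, among the CoA genes, in those of Nudt7 and Pank2. Capitals mark the match.
Nudt7, chr8:114133368-114133667, plus strand, GRCm38.p6: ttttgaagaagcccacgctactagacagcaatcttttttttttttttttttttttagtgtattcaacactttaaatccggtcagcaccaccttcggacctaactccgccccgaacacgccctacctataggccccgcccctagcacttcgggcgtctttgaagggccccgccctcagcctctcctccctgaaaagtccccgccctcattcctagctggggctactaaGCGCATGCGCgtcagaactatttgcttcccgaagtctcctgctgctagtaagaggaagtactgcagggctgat
Nudt7 was at least 2-fold higher in the DKO-labelled array and Pank2 was not. Whether these letters bear on either difference was not tested. GGGCGG, the GC box, was found in windows of 5 of the 8 CoA genes and in 35.7% of all windows. The direct repeat bound by PPAR with RXR (AGGTCA, any 1 base, AGGTCA) was in 0 of the 12 windows of these genes and in 13 of all 32851, so these letters are rare in such windows. Without a window, Coasy and Vnn1 were not searched for any motif. Each motif was searched on both strands, and a match is not a site in use.

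Other genes that move, load or cut CoA were read from a further list of 9, of which Enpp1 was not analysed here. Of the 8 measured, 7 were higher in the DKO-labelled array, 2 of them at least 2-fold (background 2.79%), and 0 were at least 2-fold lower. Over all 19938 named genes, 9249 were higher. Both 2-fold members carry CoA into an organelle. Slc25a42, the mitochondrial carrier that brings in CoA, had 799 in the DKO-labelled and 261 in the ApoE-KO-labelled array (1.62, or 3.07-fold). Slc25a17, the peroxisomal carrier of CoA and other adenine nucleotides, had 1164 in the DKO-labelled and 393 in the ApoE-KO-labelled array (1.57, or 2.96-fold). Slc25a16, a mitochondrial carrier also linked to CoA, followed with 957 in the DKO-labelled and 660 in the ApoE-KO-labelled array (0.54). Aasdhppt, which moves the phosphopantetheine arm of CoA onto carrier proteins, had 813 in the DKO-labelled and 597 in the ApoE-KO-labelled array (0.45). The remaining 4, among them the pantothenate transporter Slc5a6 (0.083) and the pantetheinase Vnn3 (-0.13), lay between -0.13 and 0.31.

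Proteins that receive the phosphopantetheine arm differed among themselves. Of 5 measured, 3 lay on or above the floor, and 1 of these was at least 2-fold higher (background 2.79%) and 0 lower (background 0.698%). It was Ndufab1, the mitochondrial acyl carrier protein and a subunit of complex I, with 2692 in the DKO-labelled and 1046 in the ApoE-KO-labelled array (1.36, or 2.57-fold). Fasn, the cytosolic fatty acid synthase, had 7876 in the DKO-labelled and 4377 in the ApoE-KO-labelled array (0.85, or 1.80-fold). Aldh1l1, a folate enzyme of the cytosol, had 942 in both arrays, and Aldh1l2 and Aasdh lay below the floor. Cells can turn the cysteamine that Vnn1 releases into taurine. Of 6 measured genes linked to taurine synthesis or uptake, not all of which act on cysteamine, 5 lay on or above the floor. Of these, 0 differed 2-fold, a count near the background. The largest there was the taurine transporter Slc6a6 (0.33), and Ado, the dioxygenase that acts on cysteamine itself, stood at 0.050.

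Enzymes that use CoA are the setting in which these genes work, and 3 lists of them were read beside the 10. Counts are of genes on or above the floor, against backgrounds of 2.79% upward and 0.698% downward, and medians cover every measured gene of a list. Of 18 genes for mitochondrial enzymes, or subunits of enzyme complexes, that bind or release free CoA, 18 were higher in the DKO-labelled array. Of these 18, 12 passed 2-fold, and the median of the list was 1.19. Pdha1, Pdhb, Ogdh and Bckdha are in the list through their complexes. Oxct1 (0.48), also in it, encodes a transferase that passes CoA between acids and does not release it free. The largest were the thiolase gene Acaa2 (2.13), Suclg1 (1.99) and Sucla2 (1.78) of succinyl-CoA ligase, and Cpt2 (1.56), which forms acyl-CoA inside mitochondria. Of 17 peroxisomal acyl-CoA genes, 7 passed 2-fold upward and 0 downward, with a median of 0.79 (0.96 over the 15 on or above the floor). Ehhadh (1.89), the acyl-CoA importer gene Abcd3 (1.84), the thioesterase gene Acot4 (1.81) and the lyase gene Hacl1 (1.54) were the largest, and Acot4 lay below the floor in the ApoE-KO-labelled array (590 in the DKO-labelled and 169 in the ApoE-KO-labelled array). Of 11 acyl-CoA synthetase genes, 4 passed 2-fold upward and 0 downward, with a median of 0.21 (0.60 over the 9 on or above the floor). Slc27a2 (4.06), Acsf3 (1.34), Acsf2 (1.13) and Acss2 (1.01) were those 4, and Slc27a2 was also below the floor in the ApoE-KO-labelled array. Under quantile normalization, loess, the offset and scaling to the fat cell markers, the mitochondrial count was 10 and the synthetase count 3. The median over all 19938 named genes was -0.015, and 9249 of them were higher in the DKO-labelled array. Pank1 lay above every one of these 3 lists' measured members except Slc27a2, while Coasy lay within the range of the mitochondrial list.

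The nuclear receptor gene Ppara was read with genes often listed as its targets, since Pank1 and Vnn1 are both described as targets of this receptor. Ppara itself had 1009 in the DKO-labelled and 243 in the ApoE-KO-labelled array (2.06, or 4.16-fold). Of the 14 genes measured, Ppara included, 9 lay on or above the floor, and 7 passed 2-fold upward (background 2.79%) and 0 downward. The median was 0.999 over all 14 and 1.52 over the 9. Pdk4 (2.07), which restrains pyruvate dehydrogenase, the thioesterase gene Acot2 (2.02) and the carnitine carrier gene Slc25a20 (2.01) were the largest beside it. Angptl4 (-0.35) was the 1 member lower in the DKO-labelled array. Beside this list Pank1 stood at 2.71 and Vnn1 at 0.0085, and whether the receptor bears on either difference was not tested.

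**Figure D3:**
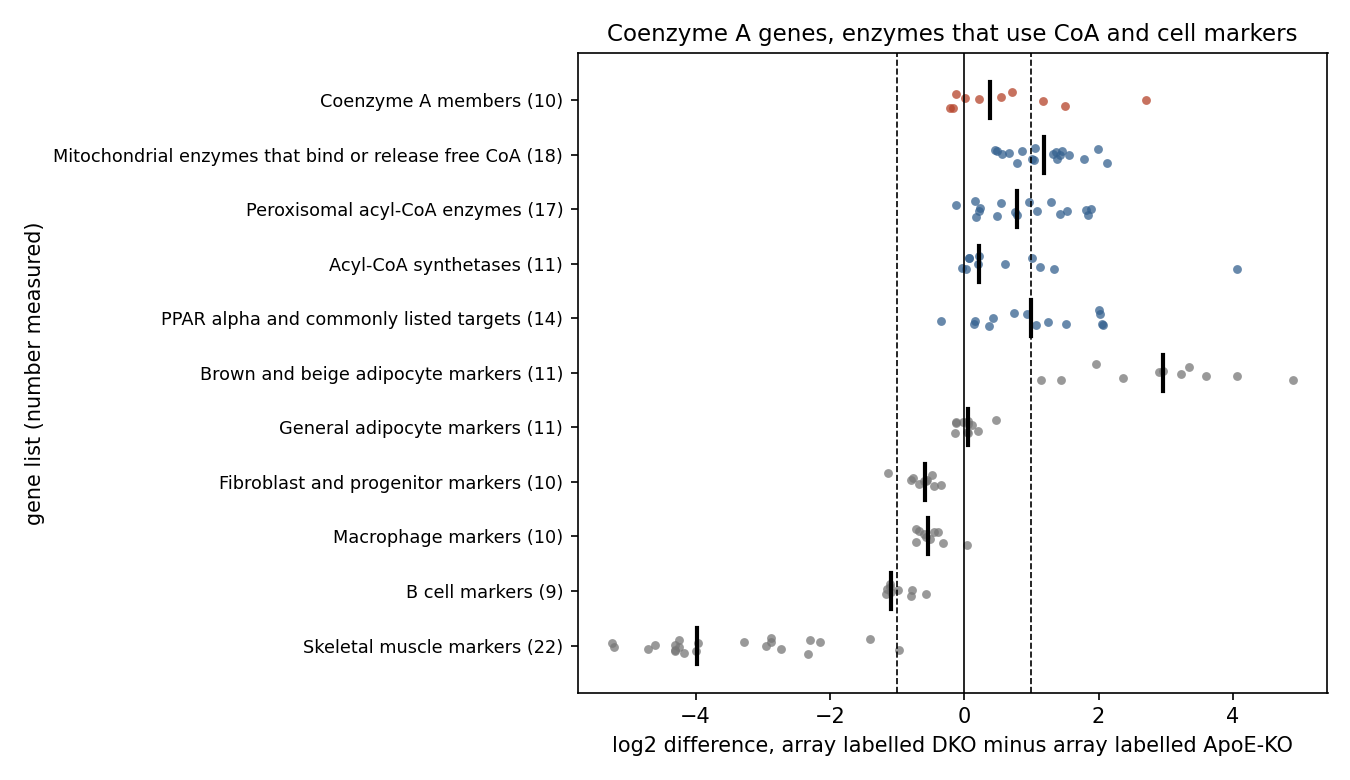
Log2 difference (DKO-labelled minus ApoE-KO-labelled array) of each gene (points) and the median (black bar) in each list, with the number measured in brackets and 2-fold as dashed lines; points are spread vertically only for legibility. The CoA genes run from -0.21 to 2.71 around a median of 0.38, fat cell markers lie near 0, brown and beige markers lie to the right, and skeletal muscle markers lie to the left.

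By size of difference, the 5 genes nearest to Pank1 among those on or above the floor were Phospho1 (2.69), Adtrp (2.80), Elovl6 (2.85), Dhrs9 (2.55) and Cidea (2.90). Dhrs9 lay below the floor in the ApoE-KO-labelled array (599 in the DKO-labelled and 102 in the ApoE-KO-labelled array), and with the floor in place of that value its difference was 1.61, no longer near that of Pank1. With 2 arrays the likeness rests on a single difference for each gene. Phospho1 had 1799 in the DKO-labelled and 280 in the ApoE-KO-labelled array, the closest of them to Pank1. Cidea, a lipid droplet protein, is itself in the brown and beige marker list.

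Genes next to the members on the chromosome were read as well. The nearest gene on or above the floor on each side was taken for all 10 members (RefSeq order, GRCm38.p6, small RNA genes left out), and 0 of these 20 neighbours differed 2-fold. With backgrounds of 2.79% and 0.698%, such a count is near that of genes in general and is no result about the neighbours. Their differences lay between -0.45 and 0.46. Beside Pank1, Slc16a12 had 265 in the DKO-labelled and 244 in the ApoE-KO-labelled array (0.12), and Rpp30 had 329 in the DKO-labelled and 269 in the ApoE-KO-labelled array (0.29). Beside Coasy, Naglu stood at 0.10 and Mlx at 0.34, and beside Nudt7, Mon1b stood at -0.26 and Vat1l at -0.028. The neighbours were looked up after the members' values had been seen.

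**Figure D4:**
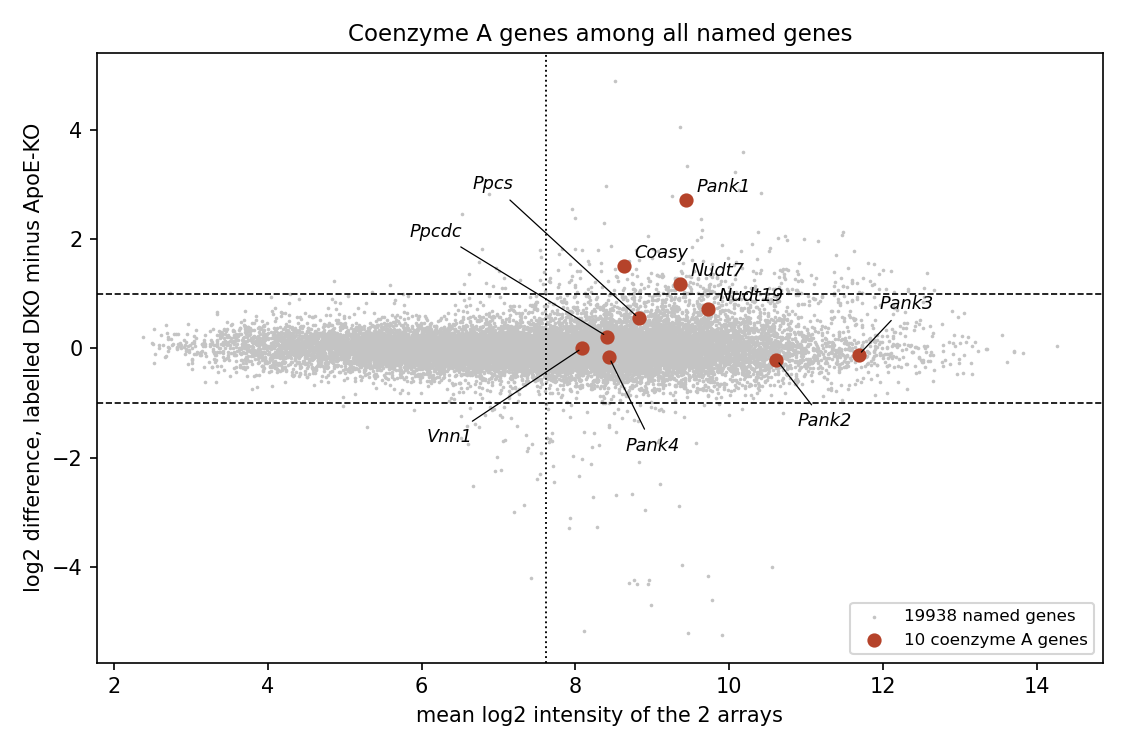
Log2 difference (DKO-labelled minus ApoE-KO-labelled array) against mean log2 intensity of both arrays for 19938 named genes (grey) and the 10 CoA genes (red), with 2-fold as dashed lines and the floor of 7.62 as a dotted line. Pank1, Coasy and Nudt7 lie above the upper line, and the other 7 lie between the lines.

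The middle 90% of genes on or above the floor had differences between -0.52 and 0.76. Pank1, Coasy and Nudt7 lay above that range, 0 members lay below it, and Nudt19 (0.72) came just inside it. Of the 10 members, 5 (Pank2, Pank3, Pank4, Ppcdc and Vnn1) differed by less than 0.25 on the log2 scale. Without replicate arrays, it was not measured how far such small differences exceed the error of an array.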

How the data were processed

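Total RNA (Trizol) was labelled as fragmented DNA with biotin, per the labels' protocols, and RNA of 3 mice per genotype was pooled. The authors deposited 1 linear intensity per probe set and array, from 3.55 to 23636 over 35557 probe sets, with medians of 152 (labelled DKO) and 158 (labelled ApoE-KO). For software, background correction, summarisation and scaling, the sources used here give nothing, and no detection call or probe position was used. Names came from the platform annotation, in which 21789 probe sets had 1 symbol and 1621 several (left out), and 12147 were unnamed here. The Entrez identifiers of all 10 members matched RefSeq (GRCm38.p6), which also supplied the sequences.

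Log2 was taken without an offset (Python 3.11.15, numpy 2.4.6, pandas 2.3.3). Where a gene had several probe sets (999 genes), that with the highest mean was used. The floor was set for this description and marks no limit of detection, and the number of arrays limits precision. The calculation was tested on simulated data, which checks the code and not the reliability of a 2-fold difference between single arrays. The members and the 14 other lists (8 of the pathway and of CoA use, 6 of cell markers) were chosen with earlier results of these data known. Named were all members, up to 4 genes per list with the largest differences on or above the floor, and the 5 genes nearest to the leading member; other names were added after their values were seen. The alternatives were quantile normalization, median centring, loess (span 0.4), an offset of 50, the mean of probe sets, values raised to the floor, no floor, a floor at percentile 75, and thresholds of 1.5-fold and 3-fold. Scaling to the fat cell markers was added after seeing the data.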

Additional observations from a re-analysis of the deposited data

How the results depend on the processing

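No paired analysis was possible because each genotype had 1 array. Under the 7 alternatives that recompute values, all 70 values of the 10 CoA genes stayed on their side of 2-fold. The mean of probe sets and values raised to the floor could not change these genes. Each has 1 probe set and all their values lie above the floor, so those alternatives say nothing about them. Pank1 ranged from 2.51 (offset of 50) to 2.76, Coasy from 1.33 to 1.55, Nudt7 from 1.09 to 1.23, and Nudt19 from 0.67 to 0.77. Vnn1 ranged from -0.042 to 0.060, its sign turning when differences were taken relative to the fat cell markers. The median of the 10 genes ranged from 0.33 to 0.44. The scalings moved the median of all genes by at most 0.052. The median of the Ppara list passed 2-fold under median centring (1.05). At 3-fold, which lowers counts by construction, 1 CoA gene (Pank1) was counted, with 1 further pathway gene, 0 phosphopantetheine carriers, 3 mitochondrial enzymes, 3 peroxisomal genes, 1 synthetase gene and 4 genes of the Ppara list. At 1.5-fold, 2 phosphopantetheine carriers passed. With the floor at percentile 75, 2 CoA genes (Pank1 and Nudt7) and 1 further pathway gene were counted, since Coasy and Slc25a42 fall below it. Signal near or below the floor limits the microRNA probe sets.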
